A study of Drosophila melanogaster with 12 samples.

Results

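Odorant-binding proteins are small soluble proteins that support cells secrete into the fluid of the sensory hairs of insect antennae, mouthparts and legs. There they bind odorants and tastants and are thought to carry or buffer them on the way to the receptors on the sensory neurons. Many members of the family are also made outside sense organs, in the fat body, the gut or the male reproductive tract, and some are passed to females in the seminal fluid. The genes were taken as those whose probe set was annotated with a single gene symbol beginning Obp and a number, which gave 47 genes of the 11982 with such a probe set. Where a gene had more than 1 probe set, the one with the highest mean over all arrays stood for it. RefSeq lists 51 genes with such symbols, and Obp50b, Obp50c, Obp57d and Obp83a had no probe set of their own here.

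RNA of whole adult Drosophila melanogaster females was hybridised to 12 Affymetrix Drosophila Genome 2.0 arrays. All females came from LHM, an outbred laboratory population, were collected as virgins on day 9 and were moved to vials with live yeast on day 12. Double mated females mated on days 12 and 13 and single mated females mated once, both with males from crosses of inbred lines derived from LHM, and both were frozen 6 hours after the last mating. Virgin females never mated. In single mated females the only mating came 6 hours before freezing, while double mated females had also mated the day before. Between these groups the number of matings and the time since the first mating therefore cannot be told apart. The label text used here does not state the day of the single mating or of the virgins' freezing, so ages at freezing were not compared. Each group had 4 arrays, each from its own extraction of a pool of 8 flies, so the spread between arrays is the spread between pools. Only 1 laboratory population was used. In whole flies, more cells of a type and more RNA per cell cannot be told apart.

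Signals are the authors' log2 values, and a difference of 1 between groups is a doubling of the signal. Values on the 4 arrays of a group are given in the order of replicates 1 to 4. A gene is said to have risen or fallen where limma, fitted to all 18769 probe sets, gave an adjusted p under 0.05. Of the 47 genes, 23 had a mean signal above the median of all probe sets (6.01) and 24 lay at or below it, where the arrays measure little of the transcript and small differences are hard to resolve. Double mated replicate 4 differed from the other arrays of its group, also over all probe sets. The SD of its difference from the mean of the rest of its group was 0.245, against 0.161 to 0.185 on the other double mated arrays. Replicate 4 was the lowest of the double mated arrays for 20 of the 23 odorant-binding protein genes above the median signal (87%), against 35.2% of all probe sets above it, although the array medians of all 12 arrays lay between 5.97 and 6.07. Virgin replicate 4 was the lowest of its group for 12 of the 23 genes (52.2%), against 25.9% of all probe sets above the median signal. The plot of each double mated array against the virgin mean shows double mated replicate 4 gene by gene. That array stands out in these same genes, so a call gained without it is not independent support. Leaving out other arrays also gained calls, as for Obp69a in single mated females against virgins without double mated replicate 2 (adjusted p = 0.0205).

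**Figure D1:**
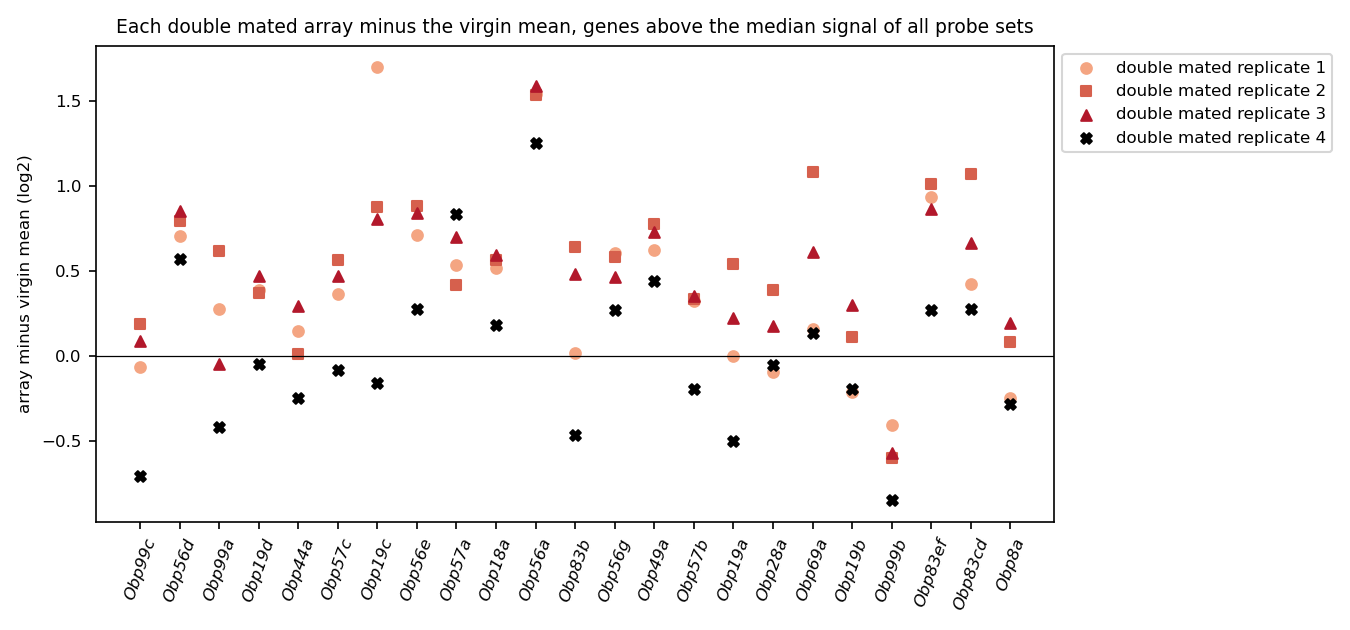
Log2 signal on each double mated array minus the mean of the 4 virgin arrays, for the 23 odorant-binding protein genes whose mean signal was above the median of all probe sets. Double mated replicate 4 (black crosses) is the lowest of the 4 arrays for 20 of the 23 genes.

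Double mated females differed from virgins in 13 of the 47 genes. The genes Obp18a, Obp49a, Obp56a, Obp56d, Obp56e, Obp56g, Obp56h, Obp57a, Obp69a, Obp83cd and Obp83ef rose, and Obp59a and Obp99b fell. The 11 that rose are 23.4% of the genes, against 12.3% of all probe sets, and the 2 that fell are 4.26%, against 15.7%. Counted in either direction, 27.7% of the genes and 28.1% of all probe sets changed, so the share that changed was close to the background and the genes leaned upwards within it. With 1 probe set for each of the 11982 genes as the background, 15.4% rose, 20.1% fell and 35.5% changed. Among probe sets above the median signal 11 of 23 genes changed, against 49.4% of such probe sets, and among those at or below it 2 of 24, against 6.76%. The upward lean lay in the brighter genes. The median difference over the 23 genes above the median signal was 0.33, against -0.04 over such probe sets. Over the 24 genes at or below it the median difference was -0.05, against -0.01 over such probe sets. The median difference over the 47 genes was 0.05, against -0.02 over all probe sets. After centring every array on its median signal, 10 genes rose and 5 fell, against 9.47% and 23% of all probe sets, and the median difference was -0.02, against -0.09 over all probe sets. With double mated replicate 4 left out, 15 rose and 3 fell, against 13.9% and 17.9% of all probe sets.

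In single mated females 4 genes rose relative to virgins (8.51%, against 4.49% of all probe sets) and 1 fell (2.13%, against 5.17%). In either direction 10.6% changed, against 9.66% of all probe sets, which is close to the background. The genes that rose were Obp49a, Obp56a, Obp57a and Obp83ef, and Obp99b fell. Between the mated groups, Obp18a, Obp56a, Obp56d, Obp56e and Obp56h were higher after 2 matings than after 1 (10.6%, against 3.55% of all probe sets). No gene was lower by limma's test (0 of 47, against 1.74% of all probe sets), and at an unadjusted p under 0.05 there were 4, all at or below the median signal. In either direction 5 of 47 changed, against 5.29% of all probe sets. Without double mated replicate 4, 10 genes were higher after 2 matings, against 6.32% of all probe sets, a share that also exceeds the 3.55% with all arrays. Taking both mated groups as the mean of their averages, 9 genes rose relative to virgins (10.3% of all probe sets did) and 2 fell (14.2% did), and these 11 are among the 13 above (23.4%, against 24.5% of all probe sets). In this comparison Obp56e was not called without any 1 of virgin replicates 2 to 4, single mated replicate 4 or double mated replicates 2 and 3 (adjusted p 0.0526 to 0.136), and Obp59a without any 1 of virgin replicates 1, 2 and 4, single mated replicates 1 to 4 or double mated replicates 1 and 2 (0.0509 to 0.132). Obp59a was also lost there with a trended and robust spread (adjusted p = 0.0555) and with the mean of its probe sets (difference -0.10, adjusted p = 0.204). Obp56g was lost without virgin replicate 2 or 3 (adjusted p = 0.107 and 0.0797), Obp69a without virgin replicate 2 or 4 (0.0688 and 0.0778) and Obp83cd without virgin replicate 3 or 4 (0.0658 and 0.0553). An F test over the 3 groups called 12 genes (25.5%), against 24.9% of all probe sets. The comparisons with virgins share the same 4 virgin arrays, and the comparison between mated groups shares its arrays with both.

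**Figure D2:**
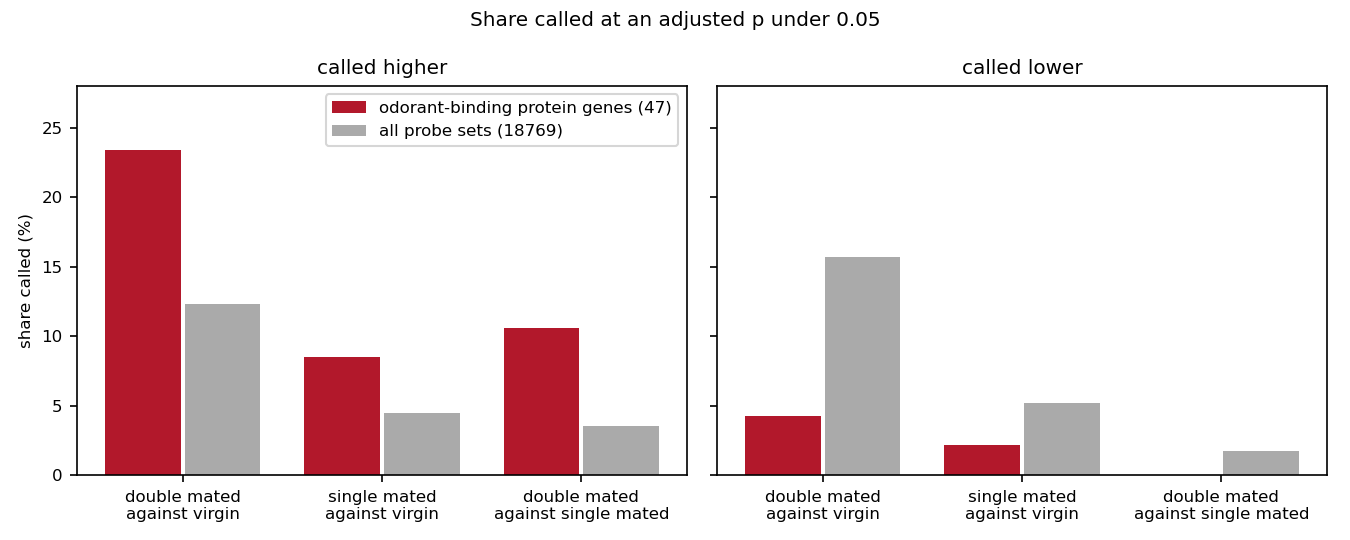
Share of the 47 odorant-binding protein genes (red) and of all 18769 probe sets (grey) called higher (left) or lower (right) at an adjusted p under 0.05, in percent. In each of the 3 comparisons the red bar is above the grey one on the left and below it on the right, with 0 genes called lower between double and single mated females.

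**Figure D3:**
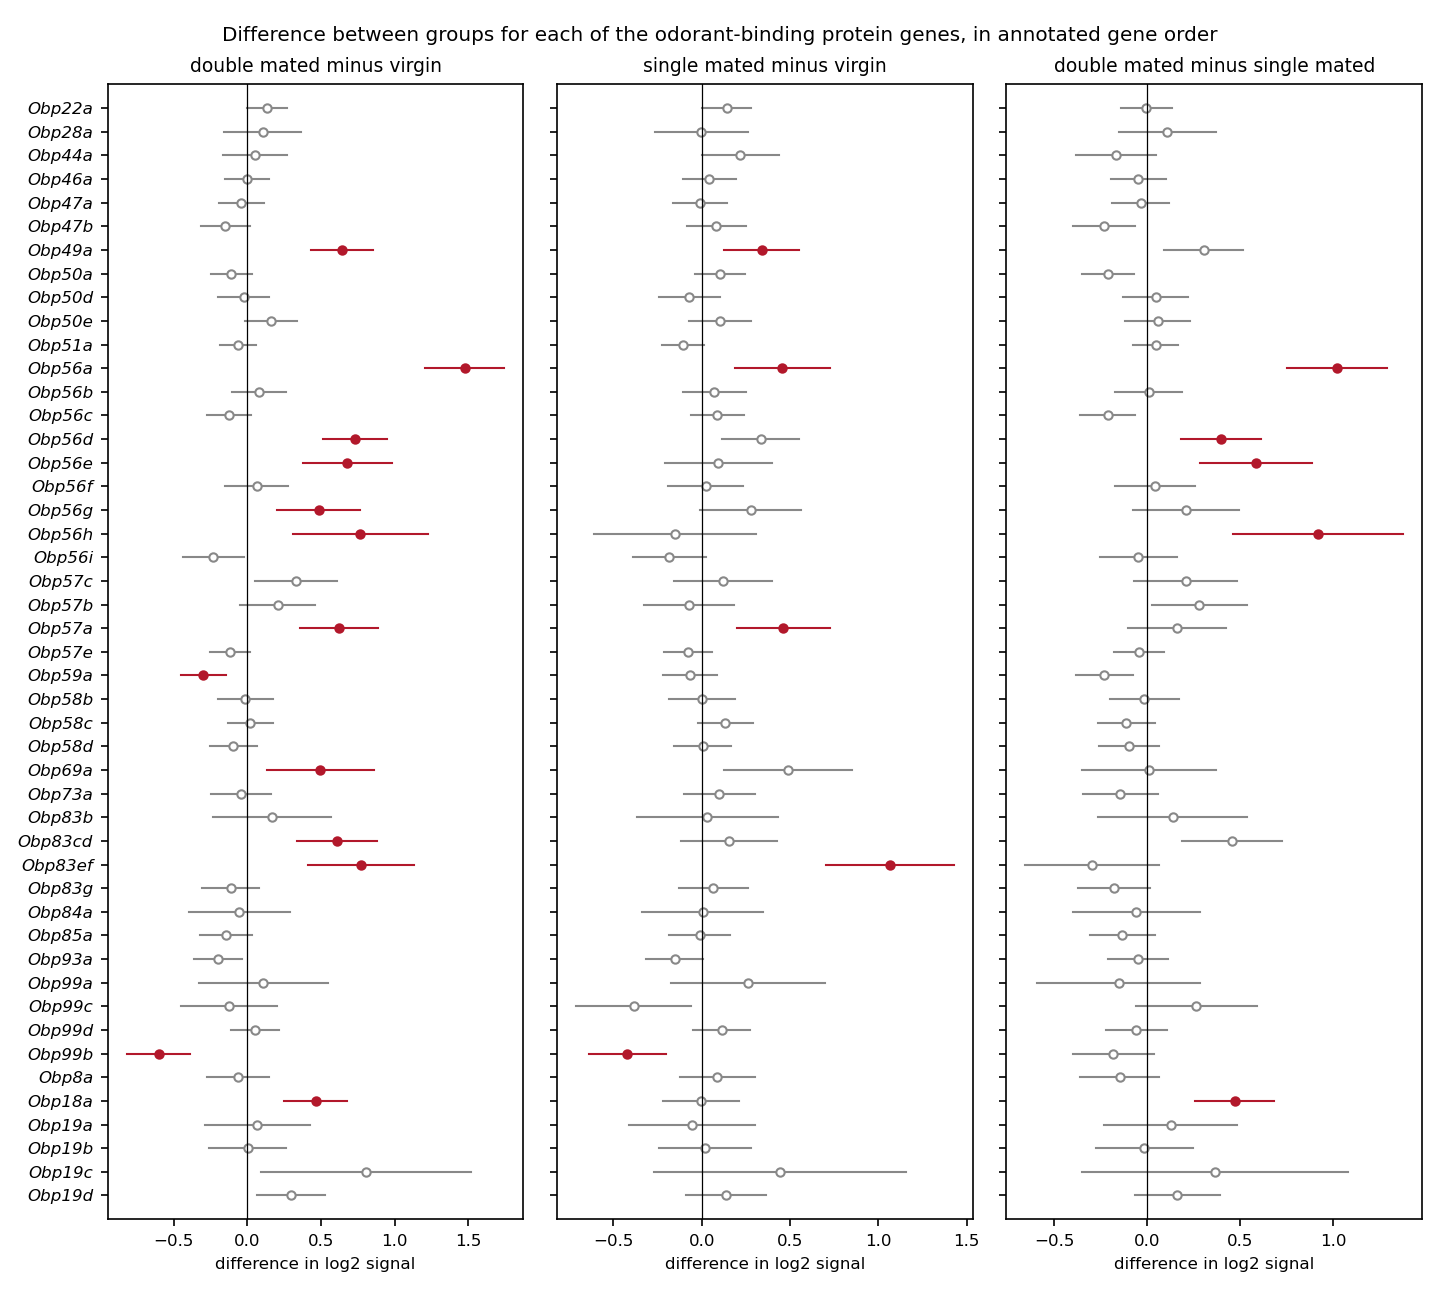
Difference in log2 signal between groups for each of the 47 genes with its 95% interval, in annotated gene order, for double mated minus virgin, single mated minus virgin and double mated minus single mated. Filled red points passed an adjusted p of 0.05; Obp56a has the widest separation from 0 on the left panel (1.48) and Obp83ef on the middle one (1.07).

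The Obp56 genes form the largest run of the family. In the RefSeq gene order (Release 6 plus ISO1 MT) Obp56a, Obp56b, Obp56c, Obp56d, Obp56e and Obp56f are immediate neighbours, Obp56g follows after 2 other protein-coding genes with Obp56h next to it, and Obp56i comes after 2 more. Obp56a had a signal of 9.85, 9.85, 9.90 and 9.56 in double mated females, 8.83, 8.51, 9.17 and 8.56 in single mated females and 8.14, 8.40, 8.39 and 8.32 in virgins. All arrays of each group lay above all arrays of the next, in the order double mated, single mated, virgin. Relative to virgins it was 2.78-fold higher after 2 matings (95% interval 2.31 to 3.35, adjusted p = 5.91e-06) and 1.37-fold higher after 1 (1.14 to 1.65, adjusted p = 0.0345). Between the mated groups it was 2.03-fold higher after 2 matings (1.68 to 2.45, adjusted p = 0.000604). The call for single mated against virgin was lost without any 1 of virgin replicates 1 to 4 or single mated replicates 1 and 3 (adjusted p 0.0532 to 0.0979) and after centring every array on its median signal (0.0502), while the calls in the other comparisons passed under all alternatives run.

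Obp56d, which is made in the antenna and mouthparts, had 12.39, 12.48, 12.54 and 12.26 in double mated females, 12.02, 11.76, 12.11 and 12.19 in single mated females and 11.80, 11.70, 11.80 and 11.46 in virgins. The double mated arrays lay above all others, and 1 single mated array lay within the virgin range. Its signal was 1.66-fold higher in double mated females than in virgins (1.43 to 1.93, adjusted p = 0.000112) and 1.32-fold higher than in single mated females (1.13 to 1.53, adjusted p = 0.0344). The difference of 0.33 between single mated females and virgins had an adjusted p of 0.0518, which was 0.0378 without double mated replicate 4. The call between the mated groups was lost when any 1 of single mated replicates 1 to 3 or double mated replicates 1 to 3 was left out (adjusted p 0.0560 to 0.102), and with the arrays of the 2 groups alone (0.0576).

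Obp56e and Obp56g encode proteins also known from the male seminal fluid, where Obp56g takes part in forming the mating plug. Obp56e had 10.12, 10.29, 10.25 and 9.69 in double mated females, 9.38, 9.50, 9.35 and 9.77 in single mated females and 9.64, 9.39, 9.51 and 9.09 in virgins. Double mated females lay above virgins on every array, with double mated replicate 4 the nearest, and single mated females and virgins overlapped. The fold was 1.60 over virgins (1.30 to 1.98, adjusted p = 0.00221) and 1.50 over single mated females (1.22 to 1.85, adjusted p = 0.0278), and the difference between single mated females and virgins was 0.09 (adjusted p = 0.740). The call between the mated groups did not pass without any 1 of single mated replicates 1 to 3 or double mated replicates 1 to 3 (adjusted p 0.0593 to 0.0831). Obp56g had 8.95, 8.93, 8.81 and 8.62 in double mated females, 8.40, 8.65, 8.56 and 8.87 in single mated females and 8.66, 7.98, 8.27 and 8.46 in virgins, so that the groups overlapped. It was 1.40-fold higher in double mated females than in virgins (1.15 to 1.70, adjusted p = 0.0131), with 0.28 between single mated females and virgins (adjusted p = 0.215).

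The other seminal fluid members were not called. Obp8a, Obp22a, Obp51a, Obp56f and Obp56i differed between double mated females and virgins by -0.23 (Obp56i) to 0.13 (Obp22a), and Obp8a alone of these had a mean signal above the median of all probe sets. Thus 2 of the 7 members of the seminal fluid list rose in double mated females and none fell (12.3% and 15.7% of all probe sets did), and in single mated females limma called 0 of 7, with 1 at an unadjusted p under 0.05. Transcripts that males make in the accessory gland, the organ that produces most seminal fluid, were measured by 13 of 15 listed markers, of which 1 had a mean signal above the median of all probe sets. In limma's test 0 of the 13 changed in double mated females (1 at an unadjusted p under 0.05) and 0 in single mated females (2 at an unadjusted p under 0.05), where 28.1% and 9.66% of all probe sets changed. At or below the median signal, where all but 1 of these markers lay, 6.76% and 1.63% of probe sets changed. In the comparison of both mated groups with virgins Mst57Da was called, at 3.95 in double mated females, 3.94 in single mated females and 3.78 in virgins (adjusted p = 0.0468). The mean signal of the 13 markers was 4.11 to 4.32 on double mated arrays, 4.13 to 4.21 on single mated arrays and 4.10 to 4.21 on virgin arrays. Of these markers Acp95EF had the widest spread between groups, with means of 7.01 in double mated females, 6.58 in single mated females and 6.65 in virgins.

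Obp56h, whose knockdown in males changes mating behaviour and cuticular hydrocarbons, was dim. Its signal was 6.50, 5.48, 5.85 and 5.71 in double mated females, 5.11, 5.19, 4.53 and 5.03 in single mated females and 4.90, 5.06, 4.87 and 5.65 in virgins. Every double mated array lay above every single mated one, but virgin replicate 4 lay within the double mated range. Obp56h was 1.70-fold higher in double mated females than in virgins (1.24 to 2.34, adjusted p = 0.0143) and 1.89-fold higher than in single mated females (1.38 to 2.60, adjusted p = 0.0232). Without single mated replicate 3 or double mated replicate 3 the call between the mated groups was lost (adjusted p = 0.0718 and 0.0514), as it was with a trended and robust spread (0.0531). Obp56b, Obp56c, Obp56f and Obp56i, which sit among these genes, had signals below the median of all probe sets and were not called. Over the 9 genes of the run, 5 rose in double mated females relative to virgins, 1 rose in single mated females, and 4 were higher after 2 matings than after 1, where 12.3%, 4.49% and 3.55% of all probe sets did. The median difference over the run was 0.48 between double mated females and virgins and 0.21 between double and single mated females, against -0.02 and -0.03 over all probe sets.

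**Figure D4:**
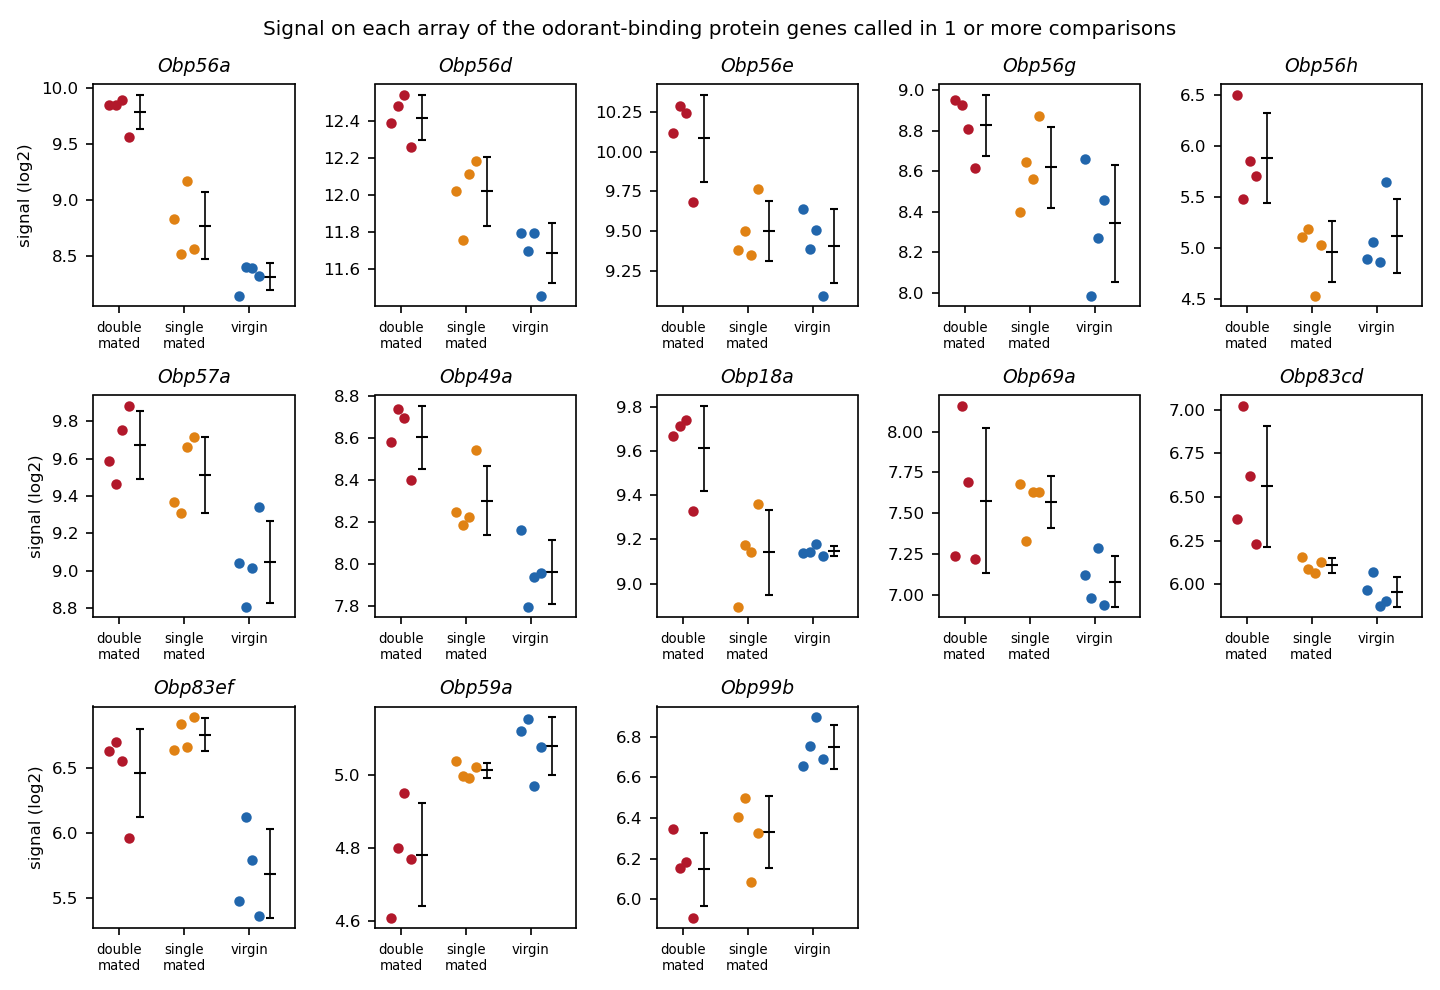
Log2 signal on each array (points) with the group mean and SD beside it (n = 4), for the 13 odorant-binding protein genes called in 1 or more comparisons. The vertical scale differs between panels; Obp56a separates all 3 groups, Obp83ef separates both mated groups from virgins except for double mated replicate 4, and Obp99b separates both mated groups below virgins.

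The Obp57 genes include Obp57d and Obp57e, which act in taste hairs of the legs and in the choice of egg-laying sites. Obp57c, Obp57b and Obp57a are immediate neighbours and Obp57e lies 9 protein-coding genes further on. Obp57a had 9.59, 9.47, 9.75 and 9.88 in double mated females, 9.37, 9.31, 9.66 and 9.71 in single mated females and 9.04, 8.81, 9.01 and 9.34 in virgins. Double mated females lay above virgins on every array and overlapped single mated females. Double mated replicate 4 was the highest of its group here, unlike in most other members. Its signal was 1.54-fold higher in double mated females than in virgins (1.28 to 1.85, adjusted p = 0.00156) and 1.38-fold higher in single mated females (1.15 to 1.66, adjusted p = 0.0295), and the mated groups differed by 0.16 (adjusted p = 0.490). The single mated call was lost without virgin replicate 1, 2 or 3 or single mated replicate 3 or 4 (adjusted p 0.0670 to 0.104).

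Its neighbours gave values that depended on 1 array. Obp57b had 8.09, 8.10, 8.11 and 7.57 in double mated females, 7.53, 7.69, 7.75 and 7.78 in single mated females and 7.82, 7.96, 7.70 and 7.55 in virgins. Obp57c had 10.33, 10.53, 10.44 and 9.88 in double mated females, 9.79, 10.17, 10.14 and 10.26 in single mated females and 9.99, 10.11, 9.93 and 9.84 in virgins. In both genes 3 double mated arrays lay above all other arrays and double mated replicate 4 lay within the range of the virgins. The differences from virgins were 0.21 for Obp57b (adjusted p = 0.241) and 0.33 for Obp57c (adjusted p = 0.0753). Without double mated replicate 4 they were 0.34 (adjusted p = 0.0106) and 0.47 (adjusted p = 0.00351), and both genes then also exceeded single mated females, by 0.41 (adjusted p = 0.0121) and 0.34 (adjusted p = 0.0484). Obp57e was dim, at 3.47 ± 0.02 in double mated females, 3.51 ± 0.13 in single mated females and 3.59 ± 0.03 in virgins (SD, n = 4 each).

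Obp49a is made by support cells of taste hairs and takes part in the suppression of sweet taste by bitter compounds. Its signal was 8.58, 8.74, 8.70 and 8.40 in double mated females, 8.25, 8.19, 8.23 and 8.55 in single mated females and 8.16, 7.80, 7.94 and 7.96 in virgins. Both mated groups lay above the virgins on every array. The fold over virgins was 1.56 in double mated females (1.35 to 1.81, adjusted p = 0.000253) and 1.27 in single mated females (1.09 to 1.47, adjusted p = 0.0460). The double mated call passed under all alternatives, whereas the single mated one was lost without any 1 of virgin replicates 2 to 4, single mated replicates 1 to 4 or double mated replicate 1 (adjusted p 0.0558 to 0.146), and after centring every array on its median signal (0.0592). Between the mated groups the difference was 0.30 (adjusted p = 0.0922) and, without double mated replicate 4, 0.37 (adjusted p = 0.0297). Of the 4 measured members of the taste list, Obp49a was the 1 that rose in each comparison with virgins. Of all probe sets 12.3% rose in double mated and 4.49% in single mated females. This list does not hold Obp56d, also made in the mouthparts, which rose in double mated females. Obp19b was at 6.98 ± 0.25 in double mated females, 7.00 ± 0.22 in single mated females and 6.98 ± 0.12 in virgins (SD, n = 4 each).

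Obp49a belongs to the Plus-C group, members with extra conserved cysteines, and was the 1 of the 11 measured Plus-C genes that changed in these comparisons. The other 10, Obp46a, Obp47b, Obp50a, Obp50d, Obp50e, Obp58b, Obp58c, Obp58d, Obp85a and Obp93a, had signals at or below the median of all probe sets, a range in which 6.76% of all probe sets changed in double mated females. Their differences between double mated females and virgins ran from -0.20 (Obp93a, adjusted p = 0.0620) to 0.16 (Obp50e, adjusted p = 0.176). Obp93a had an adjusted p of 0.0492 without double mated replicate 4, at a difference of -0.22.

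In the antennal list, which holds members known from antennal sensory hairs, 7 of 8 genes were measured. In double mated females 1 of the 7 rose and 1 fell relative to virgins, where 12.3% and 15.7% of all probe sets did. Obp56d, also made in the antenna, is not in this list. Obp69a, which takes part in responses to the male pheromone cis-vaccenyl acetate, was called as higher in double mated females than in virgins. Its signal was 7.24, 8.16, 7.69 and 7.22 in double mated females, 7.68, 7.33, 7.63 and 7.63 in single mated females and 7.12, 6.98, 7.28 and 6.94 in virgins. Single mated females lay above all virgins, while double mated replicates 1 and 4 lay within the virgin range. The difference from virgins was 0.50 in double mated females (fold 1.41, 1.10 to 1.81, adjusted p = 0.0404) and 0.49 in single mated females (adjusted p = 0.0854). Both tests share 1 spread over all groups, and the SD was 0.45 in double mated females, 0.16 in single mated females and 0.16 in virgins. Fitted by limma on the single mated and virgin arrays alone, the difference of 0.49 was called (adjusted p = 0.00859). The double mated call was lost without any 1 of virgin replicates 1, 2 and 4, single mated replicates 1, 3 and 4 or double mated replicates 2 and 3 (adjusted p 0.0501 to 0.104), and without double mated replicate 2 the difference was 0.30. It was also lost after centring every array on its median signal (adjusted p = 0.0579), with a trended and robust spread (0.0524) and with the arrays of these 2 groups alone (0.0731).

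Obp59a, needed in the antenna for sensing humidity, had 4.61, 4.80, 4.95 and 4.77 in double mated females, 5.04, 5.00, 4.99 and 5.02 in single mated females and 5.12, 5.15, 4.97 and 5.08 in virgins. All double mated arrays lay below all others. The signal in double mated females was 0.813 times that in virgins (0.732 to 0.903, adjusted p = 0.00532), at a level below the median of all probe sets. A further probe set of this gene did not follow, with means of 3.37 in double mated females, 3.40 in single mated females and 3.39 in virgins (difference -0.03 between double mated females and virgins, adjusted p = 0.834). With the mean of both probe sets the difference was -0.16 (adjusted p = 0.0539).

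The other members of the antennal list were not called. Obp19d had 11.31, 11.30, 11.40 and 10.88 in double mated females, 10.88, 11.10, 11.14 and 11.14 in single mated females and 11.02, 11.05, 10.87 and 10.76 in virgins. Double mated replicates 1 to 3 lay above all other arrays and replicate 4 lay within the virgin range. The difference from virgins was 0.30 (adjusted p = 0.0516), and without double mated replicate 4 it was 0.41 (adjusted p = 0.00198). Obp28a, a protein abundant in the antenna, was at 7.50 ± 0.22 in double mated females, 7.40 ± 0.24 in single mated females and 7.40 ± 0.12 in virgins (SD, n = 4 each). Obp83b, an antennal protein of the pheromone-sensing hairs, was at 8.75 ± 0.50 in double mated females, 8.61 ± 0.13 in single mated females and 8.58 ± 0.21 in virgins (SD, n = 4 each). Obp19a and Obp84a differed between double mated females and virgins by 0.07 (adjusted p = 0.823) and -0.05 (adjusted p = 0.855).

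Obp18a had 9.67, 9.71, 9.74 and 9.33 in double mated females, 8.89, 9.17, 9.14 and 9.36 in single mated females and 9.14, 9.14, 9.18 and 9.13 in virgins. Double mated females lay above virgins on every array, and the highest single mated array was just above double mated replicate 4. Its signal was 1.38-fold higher in double mated females than in virgins (1.19 to 1.60, adjusted p = 0.00277) and 1.38-fold higher than in single mated females (1.19 to 1.61, adjusted p = 0.0154). Fitted on the arrays of the mated groups alone, the second call was lost (adjusted p = 0.0529). Single mated females differed from virgins by -0.00 (adjusted p = 0.988).

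Obp83cd and Obp83ef are neighbouring genes that encode proteins with a pair of odorant-binding domains, and both rose in double mated females. Obp83ef had 6.62, 6.70, 6.55 and 5.96 in double mated females, 6.63, 6.83, 6.66 and 6.89 in single mated females and 5.48, 6.12, 5.79 and 5.36 in virgins. Single mated females lay above all virgins, and among the double mated arrays replicate 4 alone was within the virgin range. The fold over virgins was 1.71 in double mated females (1.33 to 2.19, adjusted p = 0.00306) and 2.09 in single mated females (1.63 to 2.69, adjusted p = 0.00188). Both calls passed under all alternatives run. The mated groups differed by -0.30 (95% interval -0.66 to 0.07, adjusted p = 0.330), which does not show that their signals were alike.

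Obp83cd had 6.38, 7.02, 6.62 and 6.23 in double mated females, 6.15, 6.09, 6.06 and 6.13 in single mated females and 5.97, 6.07, 5.87 and 5.90 in virgins. The double mated arrays lay above all others. The fold over virgins was 1.53 in double mated females (1.26 to 1.84, adjusted p = 0.00212), and single mated females differed from virgins by 0.15 (adjusted p = 0.497). Double mated females exceeded single mated females by 0.45 (adjusted p = 0.0520), or by 0.57 without double mated replicate 4 (adjusted p = 0.00847). Obp83g, the next gene in the run, was at 5.56 ± 0.02 in double mated females, 5.74 ± 0.14 in single mated females and 5.67 ± 0.20 in virgins (SD, n = 4 each) and was not called.

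Obp99b was the member that fell in both mated groups. It belongs to the Minus-C group, members that lack conserved cysteines, and is known from the fat body of the head, where its expression depends on sex. Its signal was 6.34, 6.16, 6.18 and 5.91 in double mated females, 6.41, 6.50, 6.08 and 6.33 in single mated females and 6.66, 6.75, 6.90 and 6.69 in virgins. All mated arrays lay below all virgin arrays. The signal relative to virgins was 0.658 in double mated females (0.566 to 0.765, adjusted p = 0.000455) and 0.747 in single mated females (0.643 to 0.868, adjusted p = 0.0182), and the mated groups differed by -0.18 (adjusted p = 0.316). The double mated call passed under all alternatives, and the single mated call was lost without virgin replicate 3, single mated replicate 3 or single mated replicate 4 (adjusted p 0.0513 to 0.0682).

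The other Minus-C genes were not called. Obp99c had 12.93, 13.18, 13.08 and 12.29 in double mated females, 12.45, 12.54, 12.72 and 12.72 in single mated females and 13.06, 13.12, 12.99 and 12.80 in virgins. Single mated females lay below all virgins, with a difference of -0.39 (adjusted p = 0.128), and double mated replicate 4 was lower than every other array. Leaving that array out gave -0.39 with an adjusted p of 0.0113 for single mated females against virgins, a comparison it enters only through the shared spread. With the single mated and virgin arrays alone the difference of -0.39 was also called (adjusted p = 0.0145), as it was with array weights (-0.39, adjusted p = 0.0241). Without double mated replicate 4, double mated females exceeded single mated females by 0.46 (adjusted p = 0.00852). Obp99a was at 12.00 ± 0.44 in double mated females, 12.15 ± 0.23 in single mated females and 11.89 ± 0.35 in virgins (SD, n = 4 each). Obp44a, known from glia and haemolymph, was at 10.82 ± 0.23 in double mated females, 10.99 ± 0.13 in single mated females and 10.77 ± 0.08 in virgins (SD, n = 4 each). Obp99d was dim in all groups and differed from virgins by 0.05 in double mated females.

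Obp19c had the largest difference from virgins among the genes that were not called. Its signal was 11.14, 10.32, 10.25 and 9.28 in double mated females, 9.87, 9.81, 9.52 and 10.34 in single mated females and 9.68, 10.01, 9.42 and 8.65 in virgins. The difference between double mated females and virgins was 0.81 (SE 0.33, adjusted p = 0.0901), and without double mated replicate 4 it was 1.13 (adjusted p = 0.00969). The double mated arrays alone spread over more than this difference. A further probe set of the gene was dim, with means of 4.52 in double mated females, 4.50 in single mated females and 4.29 in virgins. The last of the 34 genes called in no comparison are Obp47a, Obp56b, Obp56c and Obp73a, whose differences between double mated females and virgins lay between -0.12 (Obp56c) and 0.08 (Obp56b). Over all 34, the smallest adjusted p was 0.0516 for double mated females against virgins, 0.128 for single mated females against virgins and 0.0754 between the mated groups, and 5, 3 and 4 genes had an unadjusted p under 0.05.

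Groups can also be read from whether their arrays overlap. Double mated females lay above all virgins for 8 genes and below all of them for 4, against 11.6% and 16.4% of all probe sets. Single mated females lay above all virgins for 5 genes and below for 2, against 8.28% and 12.5%. Double mated females lay above all single mated ones for Obp56a, Obp56d, Obp56h and Obp83cd, against 5.63% of all probe sets, and below them for Obp47b, Obp56c and Obp59a, against 5.4%. The last 3 are dim, and none of them was called between the mated groups.

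Odorant-binding proteins work beside other soluble proteins and membrane receptors. Relative to virgins 28.1% of all probe sets changed in double mated females, and 6.76% of those at or below the median signal. Among 7 genes listed as co-receptors and sensory membrane proteins, which include Orco, the co-receptor of the odorant receptors, Snmp2 was called. Snmp2 alone of these had a mean signal above the median of all probe sets. The 7 also include lush, a soluble odorant-binding protein whose symbol does not begin with Obp, so the rule for members missed it. Its difference between double mated females and virgins was 0.03 (adjusted p = 0.899). Snmp2, a CD36-like membrane protein of support cells, exceeded virgins by 0.27 in double mated females (SE 0.08, adjusted p = 0.0258) and exceeded single mated females by 0.37 (adjusted p = 0.0212). Of 14 measured genes in the list of other soluble chemosensory proteins, EbpIII and Phk-3 were called in comparisons between groups, both of the chemosensory protein family. The F test over the 3 groups called 3 of the 14, against 24.9% of all probe sets. Phk-3 averaged 8.22 in double mated females, 7.52 in single mated females and 7.03 in virgins. It exceeded virgins by 1.19 in double mated females (SE 0.07, adjusted p = 5.37e-07) and by 0.49 in single mated females (adjusted p = 0.00137), and the mated groups differed by 0.69 (adjusted p = 0.000156). EbpIII exceeded virgins by 0.71 in double mated females (SE 0.09, adjusted p = 6.86e-05) and by 0.46 in single mated females (adjusted p = 0.00696). Of the takeout and odorant-degrading list 2 genes were measured and 0 changed by limma's test, also at an unadjusted p under 0.05.

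Markers of several tissues also differed between the groups in the same whole flies. Most of them had signals above the median of all probe sets, where 20.8% of probe sets rose in double mated females, against 3.83% at or below it. Of 7 photoreceptor and head markers 6 rose in double mated females relative to virgins, and their mean signal was 9.72 to 9.95 on double mated arrays, 9.58 to 9.63 on single mated arrays and 9.36 to 9.52 on virgin arrays. Of 9 neuron markers 3 rose, with means of 6.72 to 6.97 on double mated arrays, 6.75 to 6.89 on single mated arrays and 6.58 to 6.70 on virgin arrays. Of 10 fat body markers 5 rose and 1 fell, with means of 11.91 to 12.03 on double mated arrays, 11.90 to 12.04 on single mated arrays and 11.78 to 11.84 on virgin arrays. Midgut proteases rose in 9 of 10 cases, with means of 12.84 to 13.17 on double mated arrays, 12.64 to 12.92 on single mated arrays and 12.21 to 12.49 on virgin arrays. Eggshell genes, made by the follicle cells of the ovary, rose in 5 of 11 cases, with means of 13.42 to 13.83 on double mated arrays, 12.99 to 13.35 on single mated arrays and 12.67 to 13.12 on virgin arrays. The 5 were Vm26Aa, Vm32E, Vm34Ca, dec and psd, while the listed chorion genes Cp15, Cp16, Cp18, Cp19, Cp36 and Cp38 were not called. The part of these tissues in the differences of the odorant-binding protein genes was not tested.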

How the data were processed

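The deposited log2 values were made by the authors with RMA in the affy package, per the submitters' processing notes (versions not given in the sources used here). Of 18952 probe sets, 183 controls were left out, and 13647 of the rest carried 1 gene symbol, 402 several and 4720 none. Symbols come from GEO's platform annotation, and all 47 members matched RefSeq (Release 6 plus ISO1 MT) by gene ID. That assembly was used only for names and gene order, since no build is named for the array, so no coordinates are given. Group means over all 12 arrays were fitted to the deposited values by lmFit and eBayes of limma 3.58.1 under R 4.3.3, without a further normalization, and p-values were adjusted over 18769 probe sets by the Benjamini-Hochberg method. Intervals are 95% intervals of limma's moderated fit, without adjustment. Detection calls were not used here, microarrays have no read depth, and precision rests on 4 arrays per group. Members called in any comparison are given on every array and the rest by group means or ranges. The members, role lists and marker lists were chosen with earlier results of these data known. The alternatives were a replicate block, normalization by cyclic loess, median centring of the arrays, only probe sets above the median signal, a trended and robust eBayes, array weights, only the arrays of the 2 groups compared, the mean of a gene's probe sets, and leaving out each array. The fit was tested on simulated data.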

Additional observations from a re-analysis of the deposited data

Results flagged for a closer look

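For 5 genes the change from virgins differed between the mated groups, by the test of that difference itself (double minus single mated, limma): Obp56a by 1.02, Obp56h by 0.92, Obp56e by 0.59, Obp18a by 0.47 and Obp56d by 0.40. In 7 of 141 sets of 4 arrays 1 array lay far from the other 3 by Dixon's criterion at its 95% level, and chance marks about 5% of such sets. On double mated replicate 4, Obp56a was at 9.56 with the other double mated arrays at 9.85 to 9.90, and Obp57b was at 7.57 with the others at 8.09 to 8.11. On double mated replicate 2, Obp93a was at 3.96 with the others at 4.21 to 4.23, and Obp57e was at 3.50 with the others at 3.46. Single mated replicate 1 had Obp19d at 10.88 with the others at 11.10 to 11.14, and single mated replicate 2 had Obp69a at 7.33 with the others at 7.63 to 7.68. Virgin replicate 2 had Obp83g at 5.97 with the others at 5.54 to 5.61.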

How the results depend on the processing

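No named gene reversed. Of 46 calls over the genes and comparisons, 29 passed under every alternative run, and 35 differences that were not called passed under 1 or more. For double mated against virgin, the 2 genes that fell became 5 after centring every array on its median signal, and 1 with only probe sets above the median signal and with the mean of a gene's probe sets. For both mated groups against virgin, the 2 that fell became 5 with centring, 4 with array weights, and 1 with the replicate block, with only probe sets above the median signal, with trended and robust eBayes, and with the mean of a gene's probe sets. For single mated against virgin, the 4 that rose became 2 with centring, and the 1 that fell became 2 with array weights and with the arrays of the 2 groups alone. For double against single mated, the 5 that were higher became 9 with array weights and 3 with the replicate block and with the arrays of the 2 groups alone. With only probe sets above the median signal the median difference was 0.33 for double mated against virgin, 0.22 for mated against virgin and 0.16 for double against single mated, because the dim genes were not in it. The cause of the other shifts was not tested. Leaving out 1 array at a time gave 10 to 15 genes higher and 2 to 3 lower for double mated against virgin (median -0.03 to 0.09), and 1 to 5 higher and 0 to 2 lower for single mated against virgin (median 0.03 to 0.10). It gave 2 to 10 higher and 0 to 1 lower for double against single mated (median -0.04 to 0.03), 6 to 13 higher and 1 to 3 lower for mated against virgin (median 0.02 to 0.08), and 11 to 18 in the F test over the 3 groups, which called 12 with all arrays. Single mated against virgin came to 1 gene higher without virgin replicate 2, virgin replicate 3 or single mated replicate 3, and double against single mated came to 2 without single mated replicate 3 or double mated replicate 3 and 10 without double mated replicate 4. The replicate numbers showed no sign of pairing the arrays, though weak correlations do not show that the arrays were unpaired. Same-numbered arrays correlated at -0.264 to 0.143 in their deviations from the group means, with 1 of 12 pairs above 0.1. Of the 12 arrays, 2 correlated best with their own number. With the replicate block 10 genes rose and 2 fell for double mated against virgin, and 3 rose and 1 fell for single mated against virgin. The block ended the calls of Obp69a for double mated against virgin (adjusted p = 0.0559), Obp49a for single mated against virgin (0.0910), Obp56d and Obp56e for double against single mated (0.0557 and 0.0543), Obp59a for mated against virgin (0.0813) and Obp56g in the F test (0.0737). Signal over background limits the 24 genes at or below the median signal.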
